A study of Mus musculus with 4 samples.

Results

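Translation initiation factor genes were described in peak lists of H3K79me2, a dimethyl mark on a lysine of the globular domain of histone H3. They were all protein-coding genes of the RefSeq table of GRCm38 whose symbol starts with Eif and a digit, 56 of 21900 genes. The mark was mapped by chromatin immunoprecipitation and sequencing in bone marrow-derived dendritic cells (BMDCs), antigen-presenting cells grown from bone marrow, of C57BL/6J mice. The cells were given PBS, or lysine at 18 mM for 6 h, with no time stated for PBS. Per condition there were 1 library of precipitated DNA and 1 of input, and the peak lists of the 2 H3K79me2 libraries were used. Without replicates, no difference could be tested. The PBS list held 11926 peaks over 6.78 Mb and the lysine list 9805 peaks over 5.4 Mb, which is 0.796 of the PBS length. Read totals are not in the lists and the depth behind each value is unknown, so differences in depth or pull-down cannot be told apart from differences in the mark. A peak touched 34.0% of all protein-coding genes in the PBS list and 31.4% in the lysine list. Of 15 dendritic cell markers 9 carried peaks in PBS and 5 in lysine, the latter near the share of all genes. Spi1, Irf4, Batf3, Ccr7, H2-Aa and Cd209a had none in either list. Of 7 macrophage and monocyte markers 4 and 2 had a peak, and of 6 neutrophil markers 1 and 0. Markers of mast cells, T and NK cells, B cells, erythroid cells and stromal cells had 0 in both, and of 6 genes typical of liver, brain, heart and pancreas Syn1 alone had one, of 22 bp, in lysine.

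Initiation factors bring the initiator tRNA, the small ribosomal subunit and the messenger RNA together and set the ribosome on the start codon. eIF2 carries the initiator tRNA in its GTP form and is recharged by the exchange factor eIF2B. Under stress, including amino acid shortage, the eIF2 kinases phosphorylate its alpha subunit and so hold eIF2B back. eIF3 is the large scaffold on the small subunit, and eIF4F, made of the cap-binding eIF4E, the helicase eIF4A and the scaffold eIF4G, recruits the messenger RNA. The eIF4E-binding proteins block eIF4F until mTORC1, a kinase complex that senses amino acids, phosphorylates them. H3K79me2 is made by Dot1l and lies over the starts and early bodies of transcribed genes. In dendritic cells, protein synthesis is regulated during maturation.

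H3K79me2 peaks lay over a larger share of the initiation factor genes than of all protein-coding genes. A peak touched the gene body of 34 members in PBS (60.7%, against 34.0% of all protein-coding genes) and of 32 in lysine (57.1% against 31.4%). Both lists had a peak on 29 members (26.7% of all genes had one in both), PBS alone on 5 (7.32%) and lysine alone on 3 (4.68%). The other 19 members had none. Gene length was similar, with a median of 18500 bp for members and 17100 bp for all genes. Among the genes between the length quartiles of the members, 7433 and 31778 bp, 37.8% of all genes had a PBS peak and 35.0% a lysine peak. Of the 28 members in that range, 18 had a PBS peak (64.3%) and 20 a lysine peak (71.4%), so the order of the lists differs there from that over all members. The body was covered over at least 500 bp, called marked here, in 9 members in PBS (16.1%, against 11.4% of all genes) and in 4 in lysine (7.14% against 9.02%). These 4, Eif1, Eif4a1, Eif5 and Eif5a, were marked in both lists (6.23% of all genes were). Just under the limit in lysine were Eif4e at 498 bp and Eif4ebp1 at 488 bp. Most peaks straddle a gene end, and with 1 kb added at each end 21 members had at least 500 bp in PBS (37.5%, against 20.7% of all genes) and 15 in lysine (26.8% against 17.8%).

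**Figure D1:**
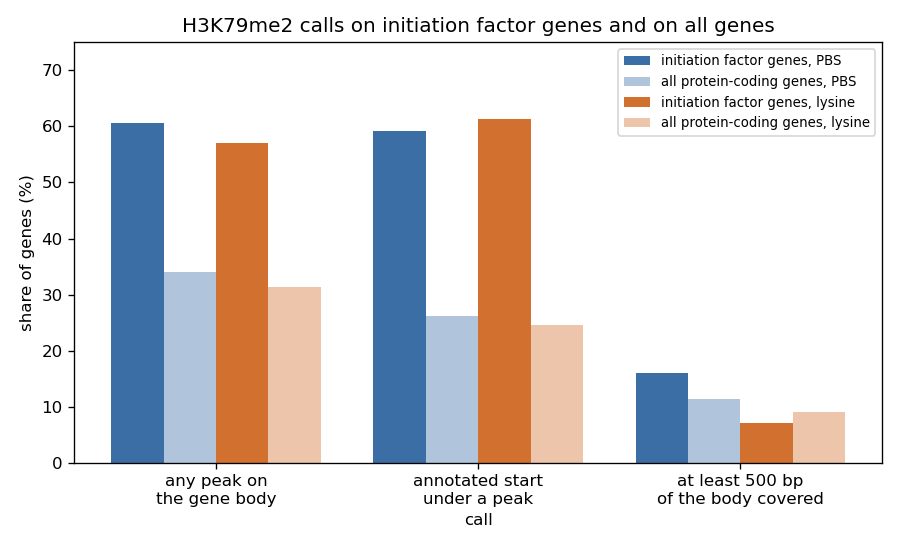
Share of genes (%) with each H3K79me2 call, for initiation factor genes (full colour) and all protein-coding genes (pale) in the PBS and lysine libraries, 1 library each; the start call uses the genes with an annotated start. Any peak and a covered start were at 57.1% to 61.4% in the members, and at least 500 bp of covered body at 16.1% in PBS and 7.14% in lysine.

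Most peaks of these genes lay over annotated starts. Annotated starts with strand were at hand for 44 members, and a peak lay over a start in 26 of them in PBS (59.1%, against 26.1% of 17492 genes with such an entry) and in 27 in lysine (61.4% against 24.5%). In 24 members the same start was under a peak in both lists (20.1% of all genes had a covered start in both). Of the members with a peak and an annotated start, 96.3% in PBS and 96.4% in lysine had a start covered, compared with 74.8% and 76.5% of all genes with a peak. Of the covered body length 88.4% in PBS and 91.6% in lysine lay within 1 kb of a start. The windows below show promoter sequence that lay under peaks, and the peaks of these genes run on beyond them. They reach from 250 bases before to 50 after a RefSeq start (GRCm38.p6) and belong to the 6 members with the most covered length among those whose window lay whole inside a peak. Capitals mark, on either strand, the ETS core CCGGAAG, the E-box CACGTG, the box CCAAT, the GC box GGGCGG, the cyclic AMP element TGACGTCA and the box TATAAA. The window of Eif5 lay inside a PBS peak alone, and the others inside a peak of each list. Those of Eif5a and Eif4e belong to starts 572 and 1077 bp inside the outermost start.
Eif5a, chr11:69921337-69921636, minus strand: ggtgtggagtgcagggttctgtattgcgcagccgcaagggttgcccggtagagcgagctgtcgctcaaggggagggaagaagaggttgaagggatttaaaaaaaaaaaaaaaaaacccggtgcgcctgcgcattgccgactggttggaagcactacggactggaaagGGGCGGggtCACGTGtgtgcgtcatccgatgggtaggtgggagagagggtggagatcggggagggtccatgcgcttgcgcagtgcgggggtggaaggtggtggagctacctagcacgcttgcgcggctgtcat
Eif4a1, chr11:69672374-69672673, minus strand: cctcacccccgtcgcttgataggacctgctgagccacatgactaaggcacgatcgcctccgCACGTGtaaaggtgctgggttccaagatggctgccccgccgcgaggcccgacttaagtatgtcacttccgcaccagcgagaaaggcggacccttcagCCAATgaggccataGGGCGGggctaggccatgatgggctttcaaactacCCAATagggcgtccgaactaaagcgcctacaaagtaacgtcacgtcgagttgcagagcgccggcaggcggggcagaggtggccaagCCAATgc
Eif5, chr12:111537851-111538150, plus strand: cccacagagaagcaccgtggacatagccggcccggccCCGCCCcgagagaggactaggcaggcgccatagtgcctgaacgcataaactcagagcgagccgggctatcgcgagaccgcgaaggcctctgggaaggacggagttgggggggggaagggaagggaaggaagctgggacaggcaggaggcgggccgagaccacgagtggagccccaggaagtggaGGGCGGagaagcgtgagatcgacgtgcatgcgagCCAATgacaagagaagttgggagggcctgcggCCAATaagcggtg
Eif1, chr11:100319699-100319998, plus strand: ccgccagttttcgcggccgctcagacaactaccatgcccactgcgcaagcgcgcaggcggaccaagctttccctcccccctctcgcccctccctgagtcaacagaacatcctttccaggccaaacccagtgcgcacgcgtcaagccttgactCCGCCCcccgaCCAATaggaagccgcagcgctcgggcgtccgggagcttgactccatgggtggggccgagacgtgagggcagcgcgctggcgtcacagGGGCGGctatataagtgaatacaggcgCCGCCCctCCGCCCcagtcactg
Eif2s1, chr12:78861822-78862121, plus strand: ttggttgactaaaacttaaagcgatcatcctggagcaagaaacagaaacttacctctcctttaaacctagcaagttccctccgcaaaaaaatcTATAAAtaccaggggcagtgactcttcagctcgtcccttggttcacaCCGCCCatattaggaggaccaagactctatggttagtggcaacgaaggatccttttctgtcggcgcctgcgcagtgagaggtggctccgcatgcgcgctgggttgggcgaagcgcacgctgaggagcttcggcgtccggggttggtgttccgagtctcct
Eif4e, chr3:138527018-138527317, plus strand: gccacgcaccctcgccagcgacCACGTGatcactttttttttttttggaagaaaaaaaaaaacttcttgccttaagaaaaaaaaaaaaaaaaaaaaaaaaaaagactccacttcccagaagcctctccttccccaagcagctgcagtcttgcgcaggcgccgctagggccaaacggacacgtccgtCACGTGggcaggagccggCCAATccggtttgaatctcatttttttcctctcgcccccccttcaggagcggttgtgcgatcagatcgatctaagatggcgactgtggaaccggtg

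The promoter windows were rich in CpG. Over the 44 members with an entry, taken at the outermost start, the median GC content was 61.0% (quartiles 55.5 and 66.6) with 23.5 CpG per window, against 56.3% and 13 over 17492 protein-coding genes. The 5469 windows of all genes that touched a peak had a median of 62.0% and 24.0 CpG, close to the members. Among the members the 29 windows with a peak had 24.0 CpG and the 15 without had 22.0. The GC box, a letter run bound by Sp1 family factors, stood in 72.7% of member windows, 46.3% of all windows and 70.9% of all windows with a peak. The ETS core stood in 31.8%, 11.9% and 24.1%, and the E-box, bound by Myc family factors among others, in 18.2%, 7.91% and 12.1%. Another gene started on the other strand within 1 kb upstream in 6 of the 44 members (13.6%, against 8.48% of all). The box CCAAT was in 31.8% of member windows, 39.2% of all and 46.7% of all with a peak. The box TATAAA was in 9.09%, 13.3% and 5.74%, and the cyclic AMP element in 0 of 44, 2.33% and 4.74%. All were searched on both strands, and none of these letter runs contains another. At the outermost start, the E-box windows were those of Eif1b, Eif3a, Eif3f, Eif3k, Eif4a1, Eif4g1, Eif4h and Eif5a2. Of these 8 windows 6 touched a peak, as did 29 of the 44 member windows and 5469 of the 17492 windows of all genes. The windows of Eif5a and Eif4e printed above, at inner starts, also hold CACGTG and are not in these counts.

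Covered length was shorter in lysine over the members as a sum, and much of the shortfall came from 3 genes. The 56 bodies had 16013 bp under peaks in PBS and 9940 bp in lysine, a ratio of 0.621, against 0.796 over all protein-coding genes. Lysine was shorter in 21 members and longer in 16, against 4931 and 3516 of the 8472 protein-coding genes with a peak in either list. The median difference was -26 bp over the 37 members with a peak in either list and -38 bp over the 8472 such genes. Lysine was below PBS by 500 bp or more in 3 members (4.26% of all genes) and above it by as much in 0 (1.83%). These 3 genes, Eif4g3, Eif5a and Eif2s1, held 69.2% of the summed difference. The other 53 genes had 10937 bp in PBS and 9067 bp in lysine, a ratio of 0.829. With the PBS list shortened to as many peaks as the lysine list, the ratio was 0.693 for the members and 0.95 for all genes, and by narrow blocks 0.784 and 0.811.

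**Figure D2:**
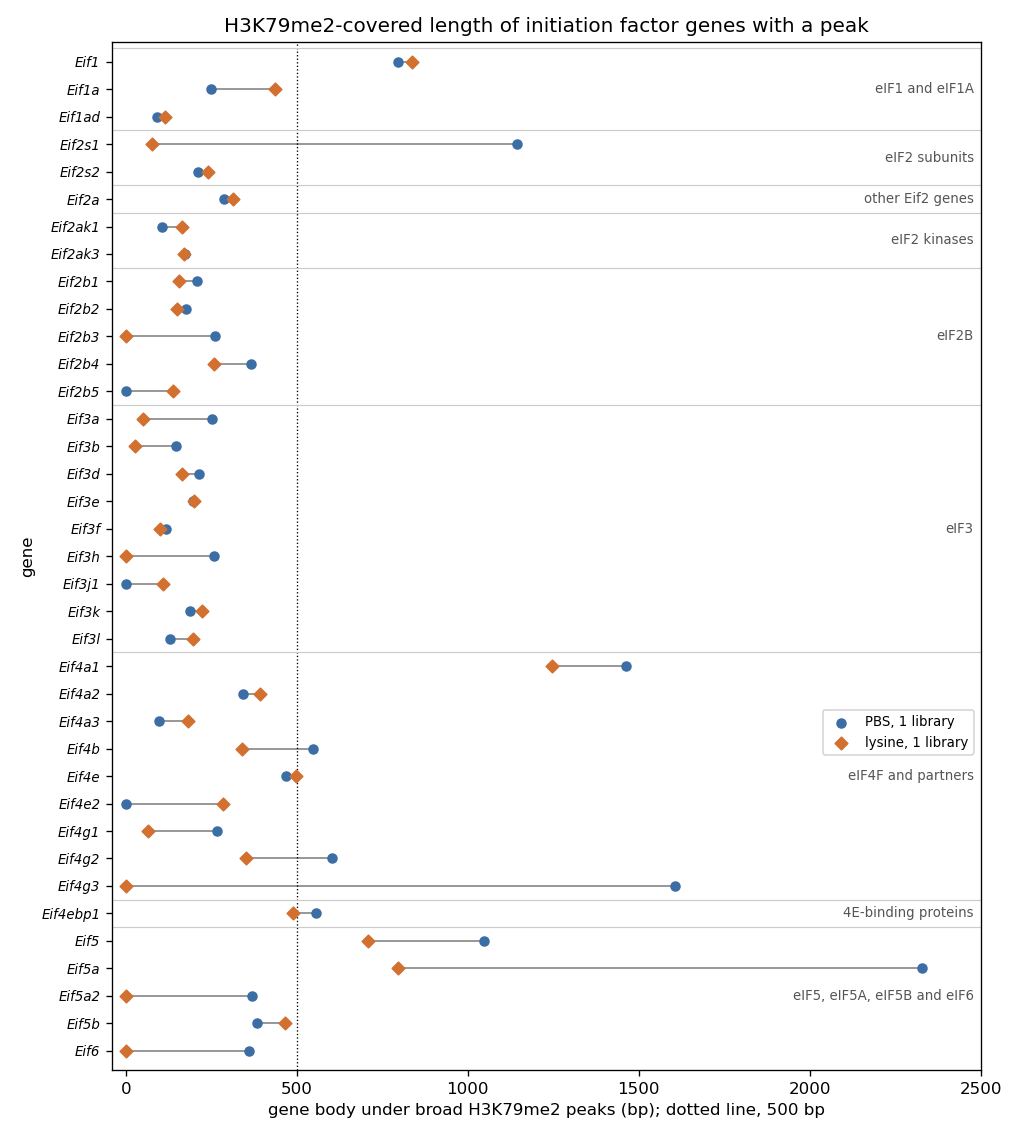
Base pairs of gene body under broad peaks (x axis, bp) for the 37 initiation factor genes with a peak in either library, ordered by complex; circles are PBS and diamonds lysine, 1 library each. Most pairs lie close together below 500 bp, while Eif5a (2327 and 796 bp), Eif4g3 (1605 and 0 bp) and Eif2s1 (1144 and 77 bp) are far apart.

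In the eIF1 and eIF1A group 3 of 5 genes had a peak in both lists (26.7% of all genes did). Each of the 3 had a little more covered body in lysine, and for Eif1 and Eif1ad the direction turned with 1 kb added at each gene end. Eif1, whose product guards against wrong start codons, was covered over 796 bp with PBS and 837 bp with lysine. Its peak ran from 374 bp before the start to 795 bp after it in PBS, and from 316 bp before to 836 bp after in lysine. Under a −log10 q minimum of 5 the PBS peak alone was left and the difference turned to -796 bp, and with 1 kb added at each gene end it was -17 bp. Eif1a, a form of the scanning factor eIF1A, had 249 and 435 bp, under a peak that also touches Tmed7. Eif1ad had 90 and 116 bp, under a peak shared with the head-to-head gene Banf1, whose start lies 450 bp away, and with 1 kb added it had 536 and 372 bp. Eif1ax and Eif1b had no peak in either list.

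In the eIF2 complex the alpha subunit gene differed most. Eif2s1 (chr12:78862072-78887010), the subunit that the eIF2 kinases phosphorylate, had 1144 bp of its body under the PBS peak and 77 bp under the lysine peak. Its PBS peak was 1809 bp wide, from 665 bp before the start to 1143 bp after it, and its lysine peak was 772 bp wide, from 695 bp before to 76 bp after. The upstream edge thus stayed within 30 bp and the downstream edge lay 1067 bp nearer to the start. Atp6v1d starts 434 bp away on the other strand and lies under both peaks, so the upstream length cannot be given to Eif2s1 alone. Both peaks were of middle to high strength in their lists, with a fold of 5.19 (percentile 66.5 by −log10 q) in PBS and 6.72 (percentile 89.9) in lysine, as the authors' caller gave them. By narrow blocks, the stretches of stronger signal inside a broad peak, the difference was -65 bp, so nearly all of the shortfall lay in broad signal outside the blocks. Eif2s2, the beta subunit, had 211 and 240 bp. Eif2s3x and Eif2s3y, the gamma subunits, had no peak. Eif2a, which encodes a separate initiation factor, had 287 and 315 bp under a peak that also touches Serp1, and Eif2d had none.

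Among the 4 eIF2 kinase genes, 2 carried a peak, with differences of -4 bp in Eif2ak3 and 59 bp in Eif2ak1. Eif2ak3 encodes the kinase Perk of the endoplasmic reticulum and had the strongest peak of all members in the PBS list. Of its body 174 bp with PBS and 170 bp with lysine were covered, under peaks of 621 and 586 bp that lay mostly upstream of the start. The fold of the PBS peak was 13.8, at percentile 99.9 of its list, and that of the lysine peak 9.13, at percentile 99.3 of its list by −log10 q. Eif2ak1, the heme-regulated kinase, had 106 and 165 bp. Eif2ak4, which encodes the amino acid sensor Gcn2, and Eif2ak2, the viral RNA sensor Pkr, had no peak in either list. Lack of a call does not show lack of the mark, which may lie below the threshold.

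All 5 genes of the exchange factor eIF2B had a peak in at least 1 list (8472 of 21900 protein-coding genes did). None of the 5 was marked, against 11.4% of all genes in PBS and 9.02% in lysine. Their bodies summed to 1011 bp in PBS and 698 bp in lysine. Eif2b1 had 207 and 155 bp, Eif2b2 had 175 and 149 bp, and Eif2b4 had 367 and 257 bp. The starts of Eif2b1 and Eif2b4 face those of Gtf2h3 and Snx17 at 17 and 165 bp, and their peaks lay over both genes of each pair. Eif2b3 had 262 bp in PBS and none in lysine, and Eif2b5 none in PBS and 137 bp in lysine. Both of these single peaks were weak in their lists, at percentiles 20.9 and 21.6 by −log10 q.

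The eIF3 genes with a peak had short stretches of covered body. Peaks lay on 8 of the 14 genes with PBS and on 8 with lysine, 7 of them the same (57.1% in each list, against 34.0% and 31.4% of all genes). None was marked, against 11.4% of all genes in PBS and 9.02% in lysine. The covered bodies summed to 1502 and 1070 bp. The strongest eIF3 peak was that of Eif3d, which encodes a subunit able to bind the cap of some messenger RNAs, at percentiles 96.9 and 98.6 of its lists, with 215 and 165 bp of body. Eif3k (187 and 224 bp), Eif3f (117 and 99 bp), Eif3e (198 and 199 bp) and Eif3l (128 and 198 bp) differed by 70 bp or less. The start of Eif3k faces that of Map4k1 at 162 bp, and its peaks lay over both genes. Eif3a, the largest scaffold subunit, had 252 and 50 bp, and Eif3b, its core partner, 148 and 26 bp. In both, the lysine peak still covered the start and lay further upstream, from 328 bp before to 49 bp after the start in Eif3a and from 475 bp before to 25 bp after it in Eif3b. Eif3h had 257 bp in PBS alone and Eif3j1 109 bp in lysine alone. Eif3c, Eif3g, Eif3i, Eif3j2 and Eif3m had no peak.

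Among the eIF4F genes and their partners, Eif4a1 kept a wide peak in both lists and Eif4g3 had peaks in PBS alone. Eif4a1 (chr11:69666936-69672423), the main eIF4A helicase, had 1464 bp under its PBS peak and 1247 bp under its lysine peak. Its peaks were 1787 and 1630 bp wide, shared 1570 bp, and stood at percentiles 96.2 and 98.1 of their lists. Each held 2 narrow blocks, over the start and inside the gene. The inner block ran from 753 to 1463 bp after the start in PBS and from 787 to 1246 bp in lysine. Eif4a2, its paralog, had 344 and 393 bp of body. The lysine peak of Eif4a2 reached 1243 bp upstream, against 174 bp in PBS, and was 1636 bp wide against 518 bp. Eif4a3, which encodes a helicase of the exon junction complex, had 97 and 182 bp, and Eif4a3l1 had no peak.

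Cap-binding and scaffold genes differed among themselves. Eif4e, the cap-binding protein, had 470 and 498 bp, all of it inside the gene over the inner start and none at the outermost start. Its relative Eif4e2 had none in PBS and 283 bp in lysine, while Eif4e1b and Eif4e3 had no peak. Eif4g1, the main scaffold, had 268 and 66 bp, and its lysine peak was among the weakest of that list, at percentile 9.48. Eif4g2, a relative of eIF4G that does not bind eIF4E, had 602 and 351 bp. Eif4g3 (chr4:137991779-138207086) had 1605 bp in PBS and no lysine peak. The PBS length was made of a 1303 bp peak and a 302 bp peak. The wide one ran from 108 bp before the outermost annotated start to 1194 bp after it, all inside the gene as listed. The other lay 75230 bp from the nearest annotated start. The wide peak was among the weakest in its list, at percentile 3.31 by −log10 q (1.67, with a fold of 3.43), and it did not pass a −log10 q minimum of 2 or a fold minimum of 4. Eif4b, a cofactor of eIF4A, had 547 and 340 bp, and under a −log10 q minimum of 5 the lysine peak alone was left, with a difference of 340 bp. Eif4h had no peak.

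Of the 4 genes of eIF4E-binding proteins, Eif4ebp1 alone had a peak. Covered were 557 bp with PBS and 488 bp with lysine, the peaks lying 577 and 748 bp inside the nearer gene end and sharing 386 bp. Eif4ebp2, Eif4ebp3 and Eif4enif1 had none in either list.

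Genes of the later steps had less covered length in lysine as a sum, though Eif5b had more by its gene body alone. All 5 had a PBS peak and 3 a lysine peak (34.0% and 31.4% of all genes did), with 4489 and 1969 bp covered. Eif5a (chr11:69916712-69921958) encodes a factor that helps ribosomes through difficult peptide bonds and carries the modified lysine hypusine. It had 2327 bp under a single PBS peak and 796 bp under a single lysine peak, the most covered length of any member in PBS. The PBS peak ran from 32 to 2358 bp after the outermost start and the lysine peak from 59 to 854 bp after it. The PBS region had 2 narrow blocks, from 32 to 845 bp and from 1852 to 2358 bp, and the lysine block matched the outer of them. The peaks stood at percentiles 96.8 and 92.6 of their lists. By narrow blocks alone the shortfall was -525 bp. Gps2 overlaps the far end of Eif5a, and neither peak touched it. Eif5, the GTPase-activating protein of eIF2, had 1049 and 708 bp and turned to 62 bp more in lysine by narrow blocks. Eif5a2, the paralog of Eif5a, had 370 bp and no lysine peak, and Eif6, which keeps the large ribosomal subunit from joining early, 359 bp and no lysine peak. Eif5b, the factor for subunit joining, had 384 and 465 bp in peaks far from each other, 51574 bp into the gene in PBS and 14253 bp in lysine. No peak lay over its annotated start. With 1 kb added at each gene end Eif5b had 1225 and 1005 bp, and its direction turned. Txndc9 starts 802 bp away on the other strand and Rev1 overlaps Eif5b, so the added length cannot be given to Eif5b alone.

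Where a start was covered in both lists, the edges of the peak were compared. Over the 24 such members the peak reached a median of 212 bp downstream of the start in PBS and 178 bp in lysine, against 202 and 193 bp over 3507 genes. Upstream it reached 301 and 319 bp, against 318 and 309 bp. The downstream edge lay at least 200 bp nearer to the start in lysine in 7 of the 24 (29.2%, against 8.9% of all genes) and at least 200 bp further in 0 (6.3%), a limit chosen after the values were seen. Of the 7, 4 lay just past that limit, with differences of -202 bp in Eif3a, -202 bp in Eif4g1, -207 bp in Eif4b and -217 bp in Eif4a1. At a limit of 250 bp the count was 3 (12.5%, against 6.81% of all genes) and at 500 bp it was 2 (8.33% against 3.45%), and at 100 bp it was 9 (37.5% against 20.1%). The edge lay further in 0 members at each of these limits, against 4.82%, 2.68% and 14.7% of all genes at 250, 500 and 100 bp. The 7 were Eif5a, Eif2s1, Eif5, Eif4a1, Eif4b, Eif3a and Eif4g1. Measured on narrow blocks, also an addition made after the values were seen, the downstream edge was nearer by as much in 3 of 24 (5.21% of 3377 genes) and further in 0 (3.55%). These 3 were Eif3a, Eif4b and Eif4g1. The median difference over the 24 members was -22 bp by broad peaks and turned to 17.5 bp by narrow blocks. The upstream edge was at least 200 bp nearer in 0 (6.93%) and further in 2 (4.59%), Eif4a2 and Eif3b. Summed over all peaks at annotated starts, 12843 bp lay inside and 6691 bp outside the gene bodies in PBS, and 8002 and 8042 bp in lysine.

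**Figure D3:**
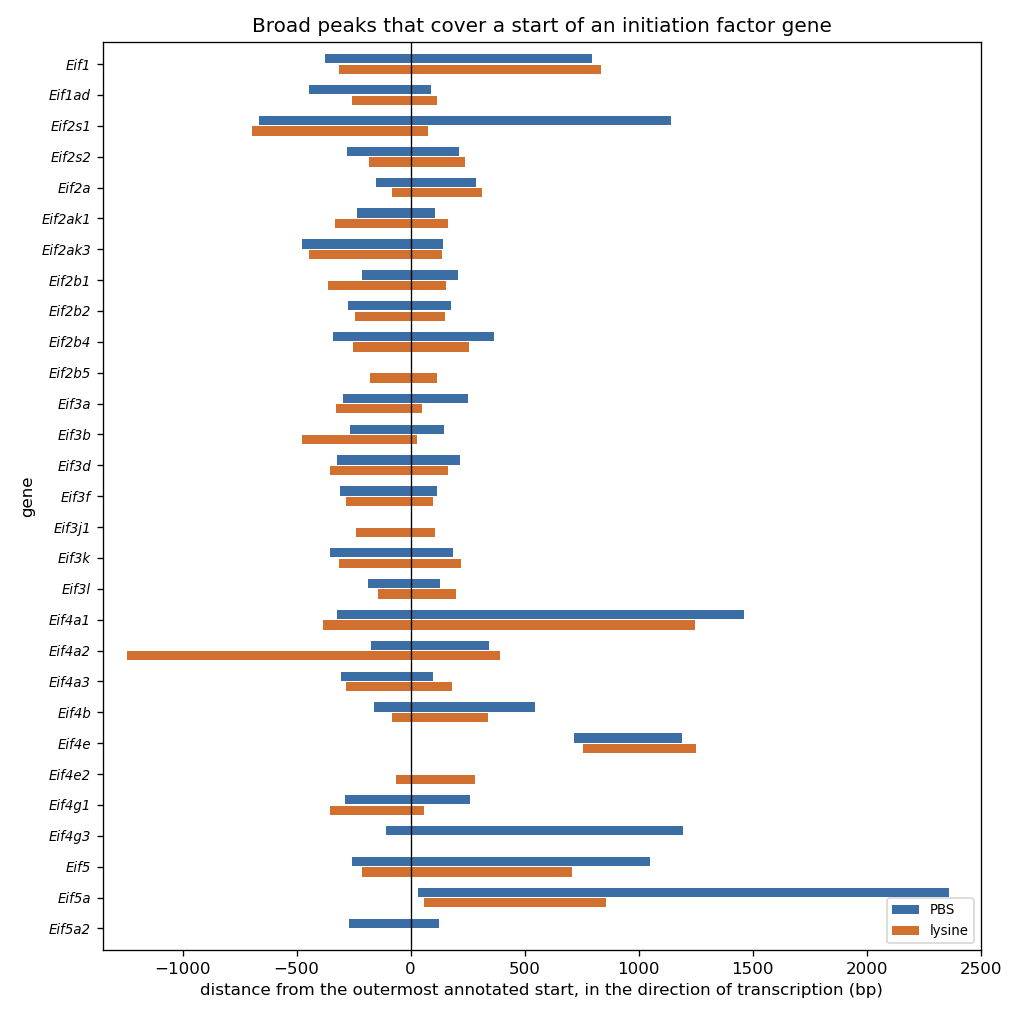
Extent of the broad peaks that cover an annotated start, as distance in bp from the outermost start in the direction of transcription (x axis), for the initiation factor genes with such a peak; upper bars are PBS and lower bars lysine. Most bars straddle the start in both libraries, and those of Eif5a and Eif2s1 end 1504 and 1067 bp earlier in lysine.

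The peaks of the members were mostly found in both lists. Of 35 PBS peaks 28 overlapped a lysine peak (80.0%, 95% Clopper-Pearson interval 63.1 to 91.6), and of 32 lysine peaks 28 overlapped a PBS peak (87.5%, 71.0 to 96.5). Over all peaks on protein-coding genes the shares were 66.3% and 78.5%. The intervals treat the peaks as independent draws and cover counting error only. Peaks of 1 library are not replicates of a condition, so the intervals give no spread between cultures and do not test the difference from all peaks. The 4 lysine peaks without a PBS partner, on Eif2b5, Eif3j1, Eif4e2 and Eif5b, stood between percentiles 21.6 and 33.8 of their list by −log10 q. Of the 7 PBS peaks without a lysine partner, those on Eif5b, Eif5a2 and Eif3h stood between percentiles 69.7 and 76.6, and the other 4, on Eif4g3, Eif6 and Eif2b3, between 3.31 and 33.9. Median widths were 518 and 492 bp, against 468 and 467 bp over all such peaks. The median peak stood at percentile 72.3 of the PBS list and 71.7 of the lysine list by −log10 q, compared with 53.5 and 53.8 for all peaks on genes. At or above percentile 90 of their list stood 7 PBS and 5 lysine peaks, and at or below percentile 10 stood 1 and 1.

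Other genes of the translation pathway were read the same way. Of 22 partners at the cap, the poly(A) tail and the start codon, 15 carried a PBS peak (68.2%, against 34.0% of all genes) and 13 a lysine peak (59.1% against 31.4%). Marked were 5 in each list (22.7%, against 11.4% and 9.02% of all genes), and 8391 and 7748 bp were covered. Pabpc1, the poly(A)-binding protein that joins eIF4G, had 1850 and 1842 bp, and Impact, an inhibitor of Gcn2, 1157 and 1579 bp. The widest shortfalls in lysine were those of Dnajc3, which encodes an inhibitor of eIF2 kinases, with 984 and 80 bp, and Ppp1r15a, which encodes the phosphatase subunit Gadd34, with 886 and 241 bp, and the widest gain that of Paip2, which binds the poly(A)-binding protein, with 80 and 715 bp. Of 10 elongation genes 6 in each list had a peak (34.0% and 31.4% of all genes), with 1796 and 2208 bp covered. Eef1d had 619 and 516 bp and Eef1a1, which delivers aminoacyl-tRNA to the ribosome, 91 and 1016 bp. Of 5 genes of termination and release 4 in each list had a peak (80.0%, against 34.0% and 31.4% of all genes), with 704 and 726 bp covered. Etf1 had 284 and 260 bp and Gspt1 209 and 166 bp, both of them release factors. The lysine to PBS ratios of these lists were 0.923, 1.23 and 1.03, against 0.796 over all genes and 0.621 in the initiation factor genes (0.829 without Eif4g3, Eif5a and Eif2s1). Single genes turned the direction of each: without Dnajc3 the partners had a ratio of 1.04, without Eef1a1 the elongation genes 0.699, and without Hbs1l the termination genes 0.957.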

How the data were processed

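Per the labels' protocols, BMDCs were fixed and paired-end libraries of H3K79me2 ChIP and input DNA were made. Titles gave the groups, and inputs were not used here. Per the submitters' processing notes, the tools were MACS2 2.1.2, Bowtie2 2.3.4.1, Trimmomatic 0.38, cutadapt 1.18, ChIPseeker, Picard and FastQC, on GRCm38, and their settings are not given in the sources at hand. The authors deposited 1 broad and 1 gapped peak list per H3K79me2 sample. The files have no header and were read by the MACS2 layout. The deposited fold is a linear ratio to local background, the deposited significance is −log10 p and −log10 q, and the deposited score restates −log10 q and was not used. The gapped lists gave the narrow blocks, and blocks of 1 bp were left out.

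Covered length is the number of bp of a gene, from end to end in the RefSeq table (GRCm38.p6), under broad peaks. It matched bedtools 2.31.1 with 0 differences over 21900 genes, and 200 of 200 intervals planted in simulated data were recovered. Starts and strand came from the RefSeq promoter table, with an entry for 44 members, so position was taken from the nearer gene end for the other 12: Eif1a, Eif2b3, Eif3e, Eif3h, Eif3i, Eif3j2, Eif4e1b, Eif4e3, Eif4g2, Eif4ebp1, Eif4ebp3 and Eif6. Shares of covered length near a start leave these 12 out. Another 12 Eif genes, pseudogenes and a non-coding gene, were left out. Members with at least 500 bp in either list are named in full and all others with a peak by their values. The members and lists were chosen with earlier results of these data known. Folds and −log10 q were used within a list. How reads shared with pseudogene copies of Eif genes were placed is not given in the sources used here. Python 3.11.15, numpy 2.4.6, pandas 2.3.3 and matplotlib 3.10.9 were used.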

Additional observations from a re-analysis of the deposited data

How the results depend on the processing

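The summed difference over the members, -6073 bp, kept its direction under every alternative run. It was -4836 bp under a −log10 q minimum of 2, -4548 bp under 5, -4209 bp at a fold of at least 4, -4411 bp with equal numbers of peaks, -5606 bp with peaks at least 1 kb wide, -2605 bp by narrow blocks, -5973 bp with 1 kb added at each gene end and -4894 bp without the 13 members that overlap another gene. All protein-coding genes also had less covered length in lysine in each setting computed for them. Their ratios ran from 0.705 with peaks at least 1 kb wide to 0.95 with equal numbers of peaks. The direction alone therefore does not set the members apart. Members with a peak numbered 21 in PBS and 18 in lysine under a −log10 q minimum of 5, and 6 and 3 among peaks at least 1 kb wide. Of all protein-coding genes, 14.3% had a lysine peak under that minimum and a larger share had a PBS peak. Among peaks at least 1 kb wide, 4.69% of all genes had one in PBS and 3.44% in lysine. Marked members numbered 5 and 2 under the −log10 q minimum of 5, 2 in lysine among peaks at least 1 kb wide, and 21 and 15 with 1 kb added (20.7% and 17.8% of all genes). They numbered 20 and 14 at a limit of 250 bp, and 5 and 1 at 1000 bp. With 1 kb added, 5 members were shorter by at least 500 bp and 1 was longer (Eif4a2). Shares over all genes were not computed for these differences or for the other marked counts, so those counts have no background beside them. The share of covered length near a start was 94.9% in PBS and 94.5% in lysine within 2 kb, and 87.7% and 91.1% by narrow blocks. Start peaks that reached at least 200 bp less far downstream in lysine numbered 7 by broad peaks and 3 by narrow blocks, and at limits of 250 and 500 bp they numbered 3 and 2. Of the 9 marked genes, Eif4a1, Eif5a and Eif2s1 kept their direction in each of the 7 alternatives run on single genes, and 3 turned: Eif1 (-796 bp under a −log10 q minimum of 5 and -17 bp with 1 kb added), Eif4b (340 bp under the same minimum) and Eif5 (62 bp by narrow blocks). Eif4g3 and Eif4g2 did not turn but had no difference in 2 of the 7 alternatives, and Eif4ebp1 in 1. For Eif4g3 these were the −log10 q minimum of 5 and the fold minimum of 4. In all, 5 of the 9 genes had no difference in at least 1 alternative. The cause of these changes was not tested beyond what each filter removes. No paired analysis was possible because each condition has 1 H3K79me2 library. Depth is unknown, so an absent peak cannot be told apart from signal below the threshold.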
